A study of Mus musculus with 6 samples.

Results

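Col15a1-gate fibroblasts are nuclei of mouse white adipose tissue with transcripts of general fibroblast genes and of the preadipocyte genes Col15a1, Icam1 and Col4a1. The members were chosen by UMI counts (unique molecular identifiers, 1 per captured transcript). Among nuclei with more than 500 genes, more than 1000 UMIs and less than 15% of UMIs from mitochondria, a fibroblast was one in which Pdgfra, Dcn, Fbn1, Col1a2 and Lama2 together reached at least 4 UMIs and Ptprc, Skap1, Pecam1, Ptprb, Epcam, Upk3b and Plin1 together had at most 1. It was a member when Col15a1, Icam1 and Col4a1 together reached at least 2 UMIs and Dpp4, Pi16, Sema3c, Cd55 and Anxa3 together had fewer than 2. This found 472 members among 1750 fibroblast nuclei and 27074 nuclei kept. Of the other fibroblast nuclei, 574 passed only the mirror gate (at least 2 UMIs of the Dpp4 genes, called Dpp4 Pi16 fibroblasts here), 494 passed neither gate and 210 passed both.

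Single-nucleus RNA sequencing was used on white adipose tissue of female C57BL/6J mice with no labelled treatment or transgene. Each of 3 groups had 2 libraries, for 6 in all. Subcutaneous fat of the inguinal depot (SAT) was taken at 2 and at 24 months, and visceral fat of the gonadal depot (VAT) at 24 months. The older age is that of the labels, where the text of the study has 26 months. Both depots were collected from 2 mice per age, so the SAT and VAT libraries at 24 months share animals. The labels do not tie libraries to mice, each library is counted as 1 replicate, and the depot tests treat the libraries as separate. The p-values measure only the spread between libraries. VAT at 2 months was not analysed here.

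White adipose tissue grows when fibroblast-like precursors become adipocytes. Dpp4 and Pi16 are known to mark interstitial progenitors of the connective tissue sheets, and Icam1 and Col15a1 mark a more committed preadipocyte inside the fat lobules. Pparg, a nuclear receptor, is the central regulator of adipocyte formation. Precursors and adipocytes sit in basement membranes, sheets of type IV collagen, laminin, nidogen and perlecan.

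In library order (SAT at 2 months, SAT at 24 months, VAT at 24 months, replicate 1 then 2), there were 76, 53, 21, 162, 134 and 26 members. Their summed depth ran from 35925 UMIs in SAT at 24 months replicate 1 to 250482 UMIs in SAT at 24 months replicate 2, with a median of 1302 to 1801 UMIs per nucleus. Members of SAT at 24 months replicate 1 and VAT replicate 2 were thus few, and their values are the least precise. No barcode was shared between the member sets of any 2 libraries. Levels below are CPM (UMIs scaled to a common total for all members of a library summed), and they compare nuclei for the same gene. They do not compare genes with each other, since no length correction was made.

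The genes of the gate chose these nuclei and are therefore described without a test. Col4a1, a chain of type IV collagen, carried most of the gate, with a UMI in 435 members. Col15a1, a collagen found beside basement membranes, had a UMI in 250 and Icam1, a cell adhesion receptor, in 58. Col4a1 was the only gate gene detected in 177 members. In library order Col15a1 stood at 415, 358, 473, 1166, 619 and 532 CPM in members and at 0 to 47.1 CPM in Dpp4 Pi16 fibroblasts. Col4a1 stood at 1802, 1393, 1670.1, 3377, 1521 and 1671 CPM, so SAT at 24 months replicate 2 was the highest library for both collagens. Icam1 stood at 161, 308, 111, 87.8, 80.3 and 76.0 CPM, highest in both libraries of SAT at 2 months. Pdgfra, the receptor that marks adipose fibroblasts, stood at 581 to 1122 CPM in members and at 8.21 to 18.8 CPM in all nuclei outside the fibroblast gate. At the threshold, 135 members held exactly 2 UMIs of the gate genes and 197 nuclei just outside held 1.

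The label of preadipocyte held in part. All 9 fibroblast genes of a list outside the rule (Col1a1, Col3a1, Col6a3, Pdgfrb, Lum, Mfap5, Fbln1, Abca8a and Gsn) were above the nuclei outside the fibroblast gate in 6 of 6 libraries. Of the committed preadipocyte list, 6 of 15 genes did so (Adgrd1, Bmper, Col4a2, Ggt5, Sparcl1 and Vcam1), and of the adipogenic transcription factors 4 of 19. Of other fibroblast lists, 3 of 13 interstitial progenitor genes and 2 of 9 genes of adipogenesis-regulatory F3 fibroblasts did so too. The measure sets fibroblasts against other nuclei and does not compare kinds of fibroblasts. Pparg was above the nuclei outside the fibroblast gate, which include adipocytes, in 1 library. No gene of the lists for adipocytes, immune, endothelial, mesothelial, epithelial, ovary or oviduct, or skeletal muscle cells was above them in 6 of 6. Of 8 genes each, 2 mural, 1 lymph node stroma and 1 Schwann or neural gene (the sodium channel Scn7a) were. The lymph node stroma gene was not 1 of the 6 named below, which had no UMI in members of VAT replicate 2. The 8 Schwann or neural genes summed to 491 to 760 CPM in members and 157 to 456 CPM outside, higher in members of every library. However, 222 of 472 members had no Col15a1 UMI, and some members carried transcripts of other stromal cells. A UMI of lymph node stroma genes (Ccl19, Ccl21a, Cxcl13, Madcam1, Tnfsf11 or Cr2) was present in 21.1% and 50.9% of members of SAT at 2 months, 19.0% and 4.32% at 24 months, and 2.99% and 0% in VAT. Nuclei outside the fibroblast gate had 19.2% and 18.3%, 5.76% and 3.59%, and 2.75% and 7.13%. Mural cell transcripts (Notch3, Abcc9 or Rgs5, genes of pericytes and vascular smooth muscle) were present in 95 members (20.1%). Their share was 21.1%, 39.6%, 19.0%, 21.6%, 8.21% and 30.8% of members in library order, 10.0%, 7.0%, 11.1%, 21.3%, 3.74% and 4.45% of nuclei outside the fibroblast gate, and 3.53% to 9.51% of immune nuclei, so in SAT at 24 months replicate 2 members were close to the outside nuclei.

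Free RNA in the suspension gives UMIs to nuclei that do not express a gene, so shares of nuclei with a UMI were set beside immune nuclei of the same library (at least 2 UMIs of Ptprc and Skap1, with fewer than 4 of the fibroblast genes). These had median depths of 1335 to 1629 UMIs. Col15a1 was detected in 34.0% to 67.9% of members and 1.68% to 12.9% of immune nuclei. As a gate gene it helped to choose the members, which favours this order. Icam1, also a gate gene, was detected in 14.5%, 32.1%, 9.52%, 7.41%, 10.4% and 7.69% of members in library order. Immune nuclei had 13.2%, 14.1%, 15.7%, 16.6%, 7.06% and 13.9%. Col4a1 was detected in 86.8% to 100% of members. Its share of immune nuclei was 17.3% and 18.8% in SAT at 24 months replicate 2 and VAT replicate 1, and 3.33% to 5.11% in the others. Col4a2, the partner chain of Col4a1, was detected in 42.3% to 74.7% and 3.61% to 14.1%. Lpl, the lipase that frees fatty acids for uptake, was detected in 77.6%, 39.6%, 76.2%, 87.0%, 68.7% and 23.1% of members against 21.5%, 12.2%, 9.57%, 43.1%, 47.1% and 9.38% of immune nuclei. Pparg was detected in 18.4%, 7.55%, 23.8%, 23.5%, 36.6% and 30.8% against 7.29%, 3.93%, 7.91%, 20.4%, 29.4% and 5.08%. In SAT at 24 months replicate 2 and VAT replicate 1 the Pparg shares of members were close to the background. The 8 genes of the mature adipocyte list summed to 7723 and 10827 CPM in the nuclei outside the gate in these libraries, against 706 to 3713 CPM in the others, and to 2244 and 3335 CPM in members, against 152 to 613 CPM.

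Members with and without a Col15a1 UMI differed in their other transcripts. The 250 with one had a median of 1405 UMIs and the 222 without had 1504.5, so detection of Col15a1 did not go with greater depth. All libraries were pooled for these values, and no test was made, since the split uses a gate gene. The pooled sides also draw on the libraries unequally: SAT at 24 months replicate 2 gave 110 of the 250 and 52 of the 222. Ccl21a, a chemokine of lymph node stroma, was at 0 CPM (0 UMIs) with Col15a1 and 2290.5 CPM (901 UMIs) without. Of those 901 UMIs, 801 came from SAT at 2 months. Csf2rb, the common cytokine receptor chain, was at 2.46 and 203 CPM, and Lepr, the leptin receptor, at 7.39 and 122 CPM. These 3 genes were almost absent from nuclei in which Col15a1 was seen. Within libraries Ccl21a was lower with Col15a1 in 5 and at 0 on both sides in 1, Csf2rb was lower in 3 and at 0 in the others, and Lepr was lower in 3, marginally higher in 2 (at most 8.64 CPM) and at 0 in 1. Cxcl13, a B cell chemokine, was at 17.2 and 229 CPM, Ccl2 at 32.0 and 168 CPM, and Vcam1, an adhesion receptor, at 101 and 361 CPM. Cxcl12 was at 263 and 732 CPM and the mural potassium channel subunit Abcc9 at 36.9 and 173 CPM. Within libraries Vcam1 was lower with Col15a1 in 6 of 6 and Cxcl12 in 5. The pooled order was opposite for some preadipocyte and basement membrane genes. Lpl was at 3228 and 1899 CPM, Sparcl1 at 1334 and 747 CPM, Nid1 (nidogen) at 1162 and 735 CPM and Bmper at 451 and 236 CPM. This order did not hold in each library. Bmper, Nid1 and Lpl were higher with Col15a1 in 5 of 6 libraries and Sparcl1 and Col4a2 in 4 of 6. Lpl was lower in SAT at 24 months replicate 1 (1490.2 against 2558 CPM) and Sparcl1 in both VAT libraries (725 against 866 and 332 against 696 CPM). With the libraries weighted equally the means were 1956 and 1773 CPM for Lpl, 944 and 752 CPM for Sparcl1, 849 and 682 CPM for Nid1 and 433 and 247 CPM for Bmper. Pdgfrb, the receptor for PDGF-B, was alike at 384 and 374 CPM. Nuclei with a Ccl19 UMI formed a small set of 27, with a median of 2358 UMIs against 1418 in the other members. They held 799 of the 901 Ccl21a UMIs but no Sparcl1 UMI and 1 Pparg UMI. Ccl21a has near-identical gene copies, so its count is uncertain.

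**Figure D1:**
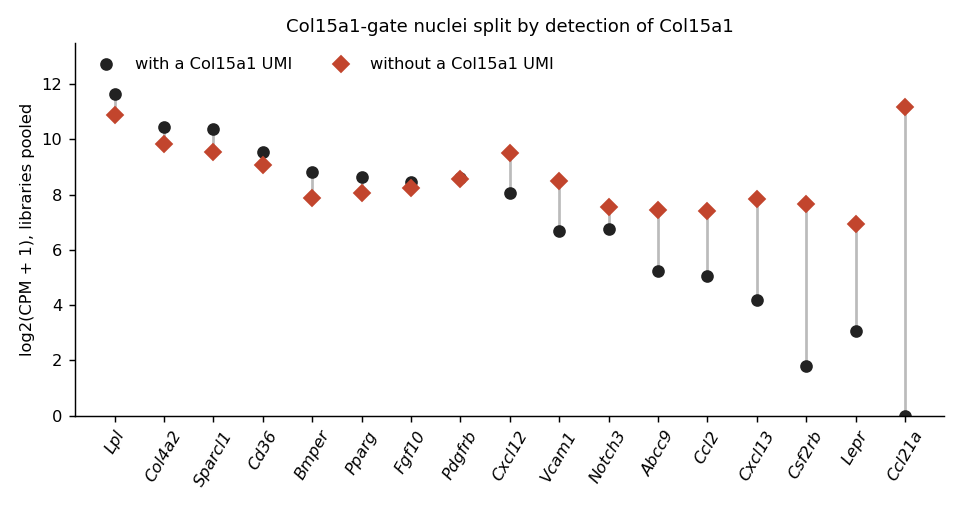
Levels of 17 genes, as log2(CPM + 1) on the y axis, in the 250 members with a Col15a1 UMI (circles) and the 222 without (diamonds), with the 6 libraries pooled and no error shown because nuclei are not replicates. In these pooled values Lpl, Col4a2 and Sparcl1 lie higher with Col15a1, an order held by 5, 4 and 4 of the 6 libraries, whereas Cxcl13, Csf2rb, Lepr and Ccl21a lie far lower, Ccl21a at 0.

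Members made up different shares of the fibroblast nuclei. They were 35.3% (95% exact binomial interval 29.0 to 42.1) and 23.9% (18.4 to 30.0) in SAT at 2 months, 26.9% (17.5 to 38.2) and 57.9% (51.8 to 63.7) in SAT at 24 months, and 17.5% (14.9 to 20.4) and 13.8% (9.19 to 19.5) in VAT at 24 months. These intervals cover counting error only. Both VAT libraries lay below all 4 SAT libraries, and the SAT libraries at 24 months lay on either side of those at 2 months. The mean share was 29.6% ± 8.11 (SD, n = 2) in SAT at 2 months and 42.4% ± 21.9 (SD, n = 2) at 24 months. The difference of 12.8 percentage points had p = 0.667 (exact permutation test, two-sided). It turned to -2.69 points without SAT at 24 months replicate 2. In VAT the mean was 15.6% ± 2.64 (SD, n = 2), and the difference from SAT at 24 months was -26.8 points with p = 0.333 (exact permutation test, two-sided), the smallest p that 2 against 2 libraries allow. It was -11.3 points without SAT at 24 months replicate 2. A Col15a1 UMI was also found in 33.8% and 36.1% of nuclei outside the fibroblast gate in SAT at 24 months replicate 2 and VAT replicate 1, against 2.2% to 11.2% in the others. The part of such UMIs in the shares was not tested.

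**Figure D2:**
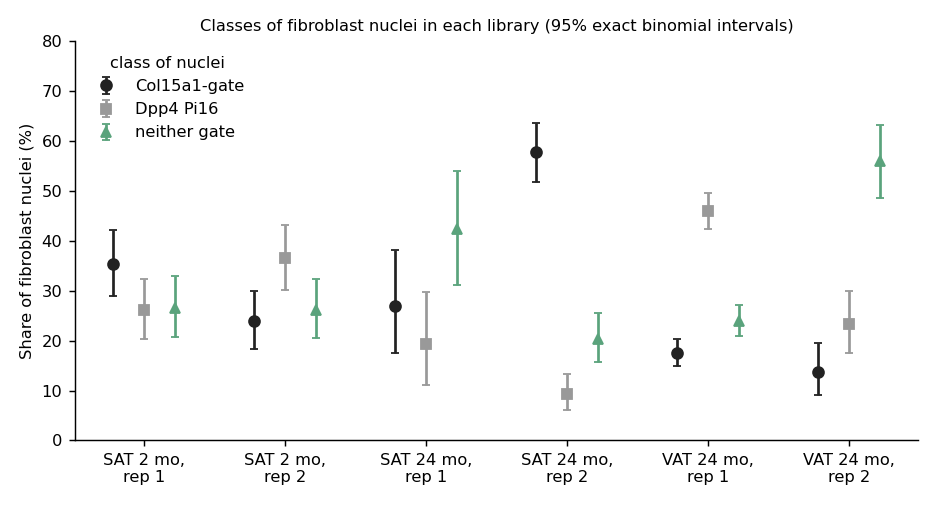
Share of fibroblast nuclei (y axis, percent) that were Col15a1-gate, Dpp4 Pi16 or neither-gate nuclei in each of the 6 libraries (x axis), with 95% exact binomial intervals as bars. The Col15a1-gate share peaks at 57.9% in SAT at 24 months replicate 2 and is lowest in the VAT libraries, at 17.5% and 13.8%.

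The next comparison asked how Col15a1-gate fibroblasts differed from Dpp4 Pi16 fibroblasts of the same library. Members had more transcript of preadipocyte genes such as Col4a2, Bmper, Sparcl1, Lpl and Fgf10 (log2 fold changes of 1.95 to 2.57). They had less of progenitor genes such as Opcml, Ackr3 and Smpd3 (log2 fold changes of -4.08 to -3.06). UMI counts were summed per class and library and tested with edgeR's quasi-likelihood test with the library as a block, and a gene was called at a Benjamini-Hochberg adjusted p under 0.05. The 20 genes of the rule were left out. Of 4329 genes, 259 were called (5.98%), of which 91 were higher in members (2.1%) and 168 lower (3.88%), and 666 had an unadjusted p under 0.05. Of the 91, 57 were higher in 6 of 6 libraries, and of the 168, 94 were lower in 6 of 6. The total was 165 without SAT at 2 months replicate 1 and 144 without VAT replicate 1. Both classes were drawn from UMIs of the same nuclei, so a gene that varies with the gate genes from nucleus to nucleus had to differ, and no other set of nuclei was used to test the calls.

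Of 15 committed preadipocyte genes, 14 were tested, 8 were called higher and 2 lower, with a median log2 fold change of 1.56 against 0.03 over all genes tested. The list was chosen with earlier results of these data known. Col4a2 (chr8:11362471-11499287, plus strand, GRCm39) stood at 581 to 1757 CPM (median 777) in members and 87.3 to 329 CPM (median 152) in Dpp4 Pi16 fibroblasts. The ranges did not overlap, and the log2 fold change was 2.33 ± 0.29 (SE), with an adjusted p of 3.19e-05. Its start overlaps that of the gate gene Col4a1 by 356 bases, and whether the counting used strand is not stated. Bmper (chr9:23134325-23396509, plus strand), a secreted BMP-binding protein, stood at 177 to 471 CPM (median 329) against 0 to 118 CPM (median 39.6). These ranges did not overlap either, and the difference was 2.57 ± 0.37 with an adjusted p of 0.000157. Sparcl1 (chr5:104226288-104262065, minus strand), a secreted matrix glycoprotein, stood at 249 to 1960.2 CPM (median 695) against 34.8 to 359 CPM (median 100.3). It was higher in 6 of 6 libraries by 2.48 ± 0.39 (adjusted p = 0.000306), although the ranges met. Lpl (chr8:69284603-69360100, plus strand) stood at 279 to 5226 CPM (median 1659) against 97.5 to 1247 CPM (median 295), and was higher in 6 of 6 libraries by 1.95 ± 0.32 (adjusted p = 0.000559). VAT replicate 2 was the lowest library and SAT at 24 months replicate 2 the highest in both classes. Fgf10, a growth factor that drives adipose development, stood at 0 to 465 CPM (median 256) against 0 to 126 CPM (median 37.4). It was higher in 5 of 6 libraries, at 0 in members of VAT replicate 2, and differed by 2.30 ± 0.41 (adjusted p = 0.00105).

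Pparg (chr6:115337675-115468268, plus strand) stood at 155, 49.7, 362, 295, 661 and 228 CPM in members in library order and at 0 to 282 CPM (median 59.5) in Dpp4 Pi16 fibroblasts. It was higher in 6 of 6 libraries by 1.72 ± 0.47 (adjusted p = 0.0279). The call was lost without SAT at 24 months replicate 1, VAT replicate 1 or VAT replicate 2, where the adjusted p reached at most 0.183. Cd36, a fatty acid transporter, was higher in 6 of 6 libraries by 1.41 ± 0.34 (adjusted p = 0.0107, and 0.0651 without SAT at 2 months replicate 1). Vcam1 was higher in 5 of 6 by 1.94 ± 0.50 (adjusted p = 0.0185), and this call was lost in 4 of 6 fits that left out a library (SAT at 2 months replicate 2, both of SAT at 24 months and VAT replicate 1), with an adjusted p of at most 0.122. Fabp4, a fatty acid binding protein, was not called (0.98 ± 0.32, adjusted p = 0.0837), nor was Plin2, a lipid droplet coat protein (0.37 ± 0.47, adjusted p = 0.841). Adgrd1, an adhesion receptor, and Gpc3, a cell surface proteoglycan, both of the list, were lower in members in 6 of 6 libraries, by -1.46 ± 0.28 (adjusted p = 0.0018) and -1.59 ± 0.34 (adjusted p = 0.00405). Of 19 adipogenic transcription factors, 13 were tested, Pparg was higher, Klf4 was lower (adjusted p = 0.011, and at most 0.0924 without SAT at 2 months replicate 1 or VAT replicate 1) and the others were not called. Mature adipocyte genes gave no call among 8 tested (median 0.70). In library order these 8 summed to 613, 458, 501, 2244, 3335 and 152 CPM in members. In Dpp4 Pi16 fibroblasts they summed to 641, 431, 218, 1718, 1293 and 195 CPM. The part of adipocyte RNA in the Pparg, Lpl and Cd36 values was not tested.

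Of 13 interstitial progenitor genes outside the rule, 12 were tested and all 12 were lower in members, with a median log2 fold change of -2.78. Opcml (chr9:27702071-28837232, plus strand), a cell adhesion protein, stood at 101 to 340.2 CPM (median 149) in members and 303 to 3449 CPM (median 1619) in Dpp4 Pi16 fibroblasts. It was lower in 6 of 6 libraries by -3.06 ± 0.31, with an adjusted p of 6.85e-06. Ackr3, a scavenger receptor for Cxcl12, stood at 29.8 to 194 CPM (median 53.2) against 65.0 to 1224 CPM (median 813), a difference of -3.30 ± 0.41 (adjusted p = 3.19e-05). For both genes only the Dpp4 Pi16 fibroblasts of VAT replicate 2 lay inside the range of members. Smpd3, a neutral sphingomyelinase, stood at 0 to 66.1 CPM (median 8.07) against 86.7 to 437 CPM (median 324), without overlap, a difference of -4.08 ± 0.46 (adjusted p = 2.14e-05). Creb5, a transcription factor, fell short of Dpp4 Pi16 fibroblasts in 6 of 6 libraries by -2.40 ± 0.34 (adjusted p = 0.000155). Efhd1, a calcium-binding protein, had 5 UMIs in members and 111 in Dpp4 Pi16 fibroblasts (-4.50 ± 0.64, adjusted p = 0.000155), and Limch1 (-2.26 ± 0.45) and Ly6c1 (-2.22 ± 0.43) were also lower. Dact2, a modulator of WNT signalling, had 0 UMIs in members and 69 in Dpp4 Pi16 fibroblasts, at least 18.4-fold lower against a floor of 3 UMIs over the group. Cd248 lost its call without VAT replicate 1 (adjusted p = 0.0631), Axl without SAT at 2 months replicate 1 (0.0602), and Wnt2 without SAT at 2 months replicate 1, SAT at 24 months replicate 2 or VAT replicate 1 (at most 0.0982). The other 9 kept theirs in each fit without a library in which they were tested.

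The naming rule allows only genes at 50 CPM or more without overlap of libraries. Outside these lists, the largest differences that it named were found for genes nearly absent from members. Sema3e, a secreted guidance cue, had 3 UMIs in members and 200 in Dpp4 Pi16 fibroblasts, a ratio of 53.4 (95% counting interval 18.0 to 261). Arl4d, a small GTPase, had 2 and 101 UMIs, a pooled ratio of 40.5 (10.9 to 339), while its log2 fold change within libraries was -4.57 ± 0.90, a smaller difference than the pooled ratio. Of the 574 Dpp4 Pi16 nuclei, 352 came from VAT replicate 1, against 134 of the 472 members, and pooled ratios carry this. Ano3, of the anoctamin family, had 3 and 101 UMIs, a pooled ratio of 27.0 (8.97 to 133). Ston2, an endocytic adaptor, stood at 0 to 27.8 CPM against 65.0 to 306 CPM, with a log2 fold change of -3.61 ± 0.45 (adjusted p = 3.19e-05). All 4 separated the classes in every library. Of the genes higher in members, Sgip1, an endocytic protein, stood at 31.0 to 217 CPM against 0 to 18.8 CPM (3.39 ± 0.57, adjusted p = 0.000586). Dchs2, a large cadherin, stood at 55.7 to 371 CPM against 0 to 45.1 CPM (2.79 ± 0.57, adjusted p = 0.00313). Spry1, an inhibitor of growth factor signalling, stood at 27.8 to 139.7 CPM against 0 to 23.5 CPM (2.59 ± 0.66, adjusted p = 0.0175, and 0.052 without SAT at 2 months replicate 1).

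**Figure D3:**
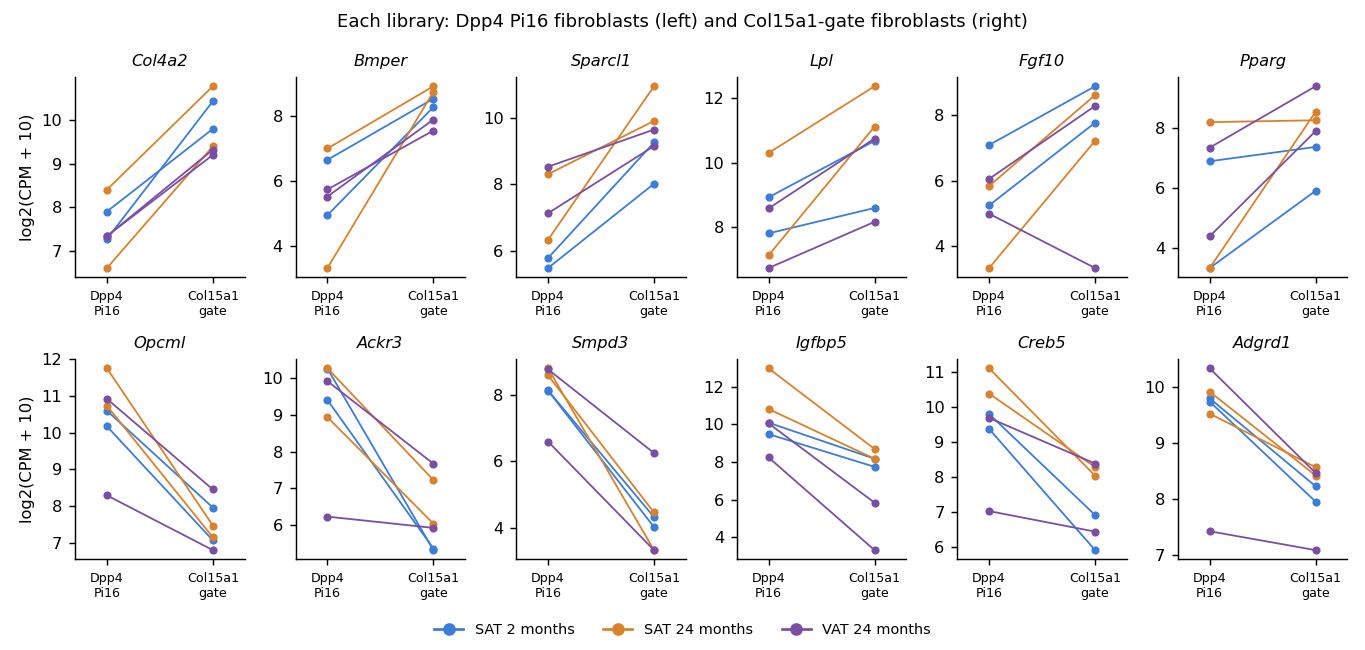
Levels of 12 genes in each library as log2(CPM + 10) on the y axis, in Dpp4 Pi16 fibroblasts (left) and Col15a1-gate fibroblasts (right), with 1 line per library coloured by group. Lines for Col4a2, Bmper, Sparcl1, Lpl and Pparg rise in all 6 libraries and those for Fgf10 in 5, while those for Opcml, Ackr3, Smpd3, Igfbp5, Creb5 and Adgrd1 fall in all 6.

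Of 29 growth factor genes (ligands and receptors), 25 were tested, 3 were higher in members, 5 were lower and 17 were not called. Pdgfrb stood at 251 to 608 CPM (median 414) against 43.7 to 223 CPM (median 82.3), without overlap, and was higher by 1.78 ± 0.32 (adjusted p = 0.00127). Nrp1, a co-receptor for VEGF and semaphorins, stood at 293 to 458 CPM (median 344) against 0 to 188 CPM (median 60.2), again without overlap, and was higher by 2.17 ± 0.39 (adjusted p = 0.000979). The third was Fgf10. The ligands Pdgfd (-1.56 ± 0.34, adjusted p = 0.00506), Pdgfc (-2.31 ± 0.56, adjusted p = 0.0123) and Fgf1, and the receptors Axl and Ntrk3, were lower. Of these, Pdgfd lost its call without VAT replicate 1 (adjusted p = 0.06) and Pdgfc without SAT at 2 months replicate 2 (0.0566). Fgf1 and Ntrk3 lost theirs in 2 of 4 and 3 of 6 such fits, Fgf1 without replicate 1 of SAT at 2 or at 24 months (at most 0.0628) and Ntrk3 without SAT at 2 months replicate 1, SAT at 24 months replicate 2 or VAT replicate 1 (at most 0.326). Of 26 TGF-beta and BMP genes, 20 were tested. Bmper and the activin receptor Acvr2a (1.45 ± 0.32, adjusted p = 0.0052) were higher and kept their calls in every fit without a library. Fst, an activin antagonist, was higher, and Bmp6 and Tgfbr2 were lower. Fst lost its call without SAT at 2 months replicate 1, SAT at 24 months replicate 2 or VAT replicate 1 (at most 0.278), Bmp6 without VAT replicate 1 (0.17) and Tgfbr2 without SAT at 2 months replicate 1, either library of SAT at 24 months or VAT replicate 1 (at most 0.0979). Of 19 WNT genes, 9 were tested and 3 were lower. Sfrp4, a secreted WNT antagonist, stood at 0 to 101 CPM (median 4.97) against 75.9 to 522 CPM (median 324) and was lower by -4.55 ± 0.67 (adjusted p = 0.000182). Sfrp2 was lower in 6 of 6 libraries by -1.71 ± 0.34 (adjusted p = 0.00285), a call lost without nuclei that held a lymph node stroma UMI.

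Of 24 cytokine and innate response genes, 21 were tested and 5 were higher in members (Ccl2, Cxcl12, Cxcl14, Il1r1 and Vcam1). Ccl2, a monocyte chemokine, stood at 118, 209, 362, 24.0, 94.5 and 0 CPM in members in library order and at 0 to 87.3 CPM (median 8.90) in Dpp4 Pi16 fibroblasts. It was higher in 5 of 6 libraries by 2.84 ± 0.58 (adjusted p = 0.00341, and 0.056 without VAT replicate 1). Il1r1, the interleukin 1 receptor, was higher in 6 of 6 by 1.06 ± 0.28 (adjusted p = 0.0212), and lost its call without replicate 1 of any group (at most 0.159). Cxcl12 and Cxcl14 lost theirs in 5 of 6 fits without a library each, and only without VAT replicate 2 and without VAT replicate 1, respectively, were they kept. Some markers of other stromal cells were also called higher in members, and their link with these cytokines was not tested. Of 8 lymph node stroma genes, 6 were tested and 2 were higher. Ccl19 stood at 322, 826, 612, 27.9, 0 and 0 CPM (3.63 ± 0.83, adjusted p = 0.00819) and Ccl21a at 1239, 5979, 863, 212, 75.6 and 0 CPM (2.87 ± 0.75, adjusted p = 0.0221), so both were highest in SAT at 2 months replicate 2. Ccl19 lost its call in 3 fits (without SAT at 2 months replicate 1 or 2 or SAT at 24 months replicate 1, at most 0.082) and Ccl21a in 2 (without either library of SAT at 24 months, at most 0.124). Of 8 mural genes, 4 were tested and 2 were higher, Notch3 in 6 of 6 libraries (2.99 ± 0.53, adjusted p = 0.000919) and Abcc9 in 5 (2.51 ± 0.60, adjusted p = 0.0121, and at most 0.104 without SAT at 2 months replicate 2 or SAT at 24 months replicate 2). Without the nuclei that held a lymph node stroma UMI, 251 genes were called in all. Cxcl12 kept its call there (1.14 ± 0.34, adjusted p = 0.0321), while Vcam1 (1.62 ± 0.66, adjusted p = 0.165), Cxcl14 (1.59 ± 0.57, adjusted p = 0.0902) and Il1r1 (0.70 ± 0.32, adjusted p = 0.233) lost theirs with the same sign. Ccl2 was not tested in that fit. Of 61 genes of the naming rule tested there, 11 lost their call and 50 kept it, none with a change of sign. The other losses were Sfrp2 (-1.41, adjusted p = 0.0535), Klf4, Mfap5, Loxl1, Zbp1, Ntrk3, Igfbp3 and Pgr, with adjusted p-values of 0.0523 to 0.210.

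The matrix of members was not higher as a whole than that of Dpp4 Pi16 fibroblasts. Of 19 basement membrane genes, 15 were tested and 2 were higher, Col4a2 and the laminin chain Lamb1, which stood at 279 to 960.0 CPM against 139 to 475 CPM (1.23 ± 0.28, adjusted p = 0.00792). Of 30 interstitial matrix genes, 29 were tested, 1 was higher (Col5a3) and 6 were lower, with a median log2 fold change of -0.0025. Col14a1, a fibril-associated collagen, stood at 19.96 to 189 CPM (median 100.2) against 119 to 1412 CPM (median 819) and was lower in 6 of 6 libraries by -3.03 ± 0.47 (adjusted p = 0.000264). Elastin (Eln, -1.52 ± 0.32) and the protease inhibitor Timp2 (-1.56 ± 0.30) were also called lower in every fit without a library. Fn1 (fibronectin, -1.78 ± 0.41) was not called without SAT at 24 months replicate 2 or VAT replicate 1 (adjusted p at most 0.0662), nor was Col5a3 in 5 of 6 such fits, all but the one without SAT at 2 months replicate 2. Loxl1 and Mfap5 lost their calls in 4 and 5 of 6, Loxl1 being kept without SAT at 2 months replicate 1 or VAT replicate 2 and Mfap5 without VAT replicate 2. Igfbp7, a secreted binding protein of the senescence list and also a vascular gene, stood at 567 to 1773 CPM against 62.6 to 494 CPM, without overlap (1.84 ± 0.34, adjusted p = 0.00141).

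Of the lists that describe cells outside this lineage, 5 of 8 mesothelial genes were tested and 4 were lower in members (Gpm6a, Upk1b, Muc16 and Wt1). Their UMIs in Dpp4 Pi16 fibroblasts came only from VAT, and Wt1 lost its call in 4 of 6 fits without a library (SAT at 2 months replicate 1, SAT at 24 months replicate 2 or either VAT library, at most 0.51). Gpm6a had 3 UMIs in members and 260 in Dpp4 Pi16 fibroblasts, where it stood at 364 and 509 CPM in the VAT libraries and 0 in SAT. Of the study's 8 genes for subsets of fibro-adipogenic progenitors, all were tested and Il1rapl1 (-3.29 ± 0.55, adjusted p = 0.000586) and Asic2 (-2.11 ± 0.50, adjusted p = 0.00951) were lower in members. The study gives both as markers of a subset that it proposes to be preadipocytes proper. It chose this list of 8 genes on these samples, so the list is not independent evidence. The interferon and MHC class I list gave 1 call among 13 tested (Zbp1, lower), the steroid receptors 1 among 5 (Pgr, lower) and the list for adipogenesis-regulatory F3 fibroblasts 1 among 5 (Igfbp3, higher, kept only without SAT at 2 months replicate 1 or VAT replicate 2).

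Members were next compared with the fibroblasts of neither gate in the same library, which shows what goes with the gate genes when the Dpp4 genes are low in both classes. Again a gene that varies with the gate genes from nucleus to nucleus had to differ, and Col4a1 carried most of the gate. Here members had more transcript of some matrix genes, called for 10 of 28 interstitial matrix and 5 of 16 basement membrane genes tested, such as Col6a3, Col3a1, Nid1 and Col4a2 (log2 fold changes of 1.10 to 1.34), and less of the chemokine Cxcl13. The neither-gate class held more nuclei with a lymph node stroma UMI than members did in every SAT library (49.1%, 62.1%, 42.4% and 21.1% against 21.1%, 50.9%, 19.0% and 4.32%). Without such nuclei in either class, 31 of the called genes chosen by the naming rule were tested and 11 kept their call, among them Col6a3 (1.21, adjusted p = 0.0023), Col3a1 (0.99), Col5a3 (1.12), Col1a1 (0.97), Col4a2 (1.18), Nid1 (0.92), Sparc (0.92) and Gsn (1.04). The 20 calls lost included Lpl (0.54, adjusted p = 0.248), Sparcl1 (0.54, adjusted p = 0.333), Hspg2 (0.68, adjusted p = 0.178) and Lamb1 (0.68, adjusted p = 0.174). Of 4232 genes, 77 were called (1.82%), 40 higher (0.945%) and 37 lower (0.874%), with 395 at an unadjusted p under 0.05. Of 14 preadipocyte genes tested, 3 were higher (Col4a2, Lpl and Sparcl1) with a list median of 0.31, against -0.03 over all genes tested. Lpl and Sparcl1 lost their calls in 4 of 6 fits without a library, both without SAT at 2 months replicate 1 or either library of SAT at 24 months, Lpl also without VAT replicate 2 and Sparcl1 also without SAT at 2 months replicate 2. Pparg stood at 49.7 to 661 CPM against 81.8 to 739.7 CPM and was not called (0.12 ± 0.25, adjusted p = 0.947). Bmper (0.66 ± 0.25, adjusted p = 0.27) and Fgf10 (0.34 ± 0.26, adjusted p = 0.811) were not called either, and no adipogenic transcription factor was among 13 tested. This comparison and the previous one share the member libraries. Genes called higher in both numbered 9, which is 9.89% of the calls against Dpp4 Pi16 fibroblasts and 22.5% of those against the neither-gate class (Col4a2, Col5a3, Emilin1, Fst, Lamb1, Lpl, Pcolce, Sparcl1 and Steap4).

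Of 28 interstitial matrix genes tested, 10 were higher in members and none lower, with a median log2 fold change of 0.70. Col6a3 (chr1:90693645-90771780, minus strand), a chain of type VI collagen, stood at 1369, 557, 835, 1753, 614 and 760.0 CPM in members in library order and at 409, 284, 256, 276, 438 and 409 CPM in the neither-gate class. The lowest member library was above the highest neither-gate library, and the difference was 1.34 ± 0.22 (adjusted p = 0.000158). Col3a1 stood at 582 to 5927 CPM (median 2045) against 495 to 2004 CPM (median 1016), was higher in 5 of 6 libraries, with VAT replicate 2 the exception, and differed by 1.10 ± 0.20 (adjusted p = 0.000826). Col5a3 was higher in 6 of 6 by 1.37 ± 0.21 (adjusted p = 6.97e-05). Col1a1 was higher in 6 of 6 by 1.05 ± 0.20 (adjusted p = 0.00135, and 0.0612 without SAT at 2 months replicate 1). The other 6 (Col5a1, Fbln2, Lum, Mmp2, Timp3 and Tnxb) each lost their call in 2 to 5 of the fits without a library, all 6 without SAT at 2 months replicate 1 and all 6 without SAT at 24 months replicate 2. Gsn, an actin-severing protein abundant in adipose fibroblasts, stood at 1342 to 16856 CPM (median 6009) against 646 to 7296 CPM (median 2991) and was higher in 6 of 6 by 1.21 ± 0.17 (adjusted p = 1.66e-05). Gsn, Col1a1, Col3a1, Col6a3 and Lum also belong to the general fibroblast list, so part of these calls is of general fibroblast genes.

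Of 16 basement membrane genes tested, 5 were higher and none lower, with a median of 0.66. Nid1 stood at 329 to 1545 CPM (median 691) against 138 to 839.9 CPM (median 278) and was higher in 6 of 6 libraries by 1.14 ± 0.21 (adjusted p = 0.000826). Col4a2 was higher in 6 of 6 by 1.23 ± 0.20 (adjusted p = 0.000102), and both calls were kept without any library. Hspg2, perlecan, stood at 527 to 1121 CPM (median 568) against 284 to 495 CPM (median 363), with no overlap, by 0.87 ± 0.21 (adjusted p = 0.0177, and at most 0.201 without SAT at 2 months replicate 1 or SAT at 24 months replicate 2). Sparc, a collagen-binding protein, was higher in 6 of 6 by 0.86 ± 0.19 (adjusted p = 0.00675, and 0.0969 without SAT at 2 months replicate 1). Lamb1 was called as well but only without SAT at 2 months replicate 2 was it kept. Of single genes, Ptgfrn, a membrane protein, stood at 99.2 to 179.7 CPM against 0 to 84.0 CPM without overlap (1.61 ± 0.39, adjusted p = 0.0177, lost in 4 of 6 fits without a library, kept without SAT at 2 months replicate 2 or VAT replicate 1). Tmeff2, a transmembrane protein, was higher in 6 of 6 by 1.07 ± 0.21 (adjusted p = 0.00186) and kept its call in all 6 fits. Without the nuclei that held a lymph node stroma UMI it was higher by 0.75 ± 0.21 but not called (adjusted p = 0.0763).

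Among the genes lower in members, Cxcl13 stood at 396, 189, 55.7, 47.9, 0 and 0 CPM in members in library order and at 1258, 724, 615, 360.0, 0 and 0 CPM in the neither-gate class. It was lower in 4 of 4 SAT libraries and had no UMI in either class of VAT (-2.16 ± 0.29, adjusted p = 8.82e-06). Gas6, the ligand of Axl, was lower in 6 of 6 libraries by -1.01 ± 0.22 (adjusted p = 0.00675, and 0.0737 without SAT at 2 months replicate 1), and Igfbp5 in 6 of 6 by -1.23 ± 0.26 (adjusted p = 0.00505). Cxcl12, higher in members than in Dpp4 Pi16 fibroblasts, was lower here in 6 of 6 by -0.76 ± 0.21 (adjusted p = 0.0413), as was Vegfa in 5 of 6 by -0.86 ± 0.24 (adjusted p = 0.0466). Both lost their calls in 4 or more of the fits without a library, Cxcl12 being kept only without SAT at 2 months replicate 2 and Vegfa only without replicate 1 of SAT at 24 months or of VAT. Sfrp4 was lower in 6 of 6 libraries (-2.78 ± 0.60, adjusted p = 0.00675, and at most 0.219 without SAT at 24 months replicate 2 or VAT replicate 1). Lower calls were found for Il1rapl1, Pcdh11x, Nos1ap, Dock10, C7, a complement component, and Trps1, a transcription factor (-2.06 to -0.82), and higher calls for Adam23 (0.94), Egfr, the epidermal growth factor receptor (0.69), and Fstl1 (0.90), and each lost its call in 2 or more of the fits without a library, all of them without SAT at 2 months replicate 1 and all but Fstl1 without SAT at 24 months replicate 2. Without nuclei that held a lymph node stroma UMI, the difference of Cxcl12 was -0.09 ± 0.28 (adjusted p = 0.98), that of Vegfa -0.77 ± 0.30 (adjusted p = 0.353) and that of Gas6 -1.06 ± 0.28 (adjusted p = 0.0546), and 14 of 2040 genes were called. The 77 calls ranged from 18 without SAT at 24 months replicate 2 to 79, with 22 without SAT at 2 months replicate 1, 39 without SAT at 24 months replicate 1 and 40 without VAT replicate 2.

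**Figure D4:**
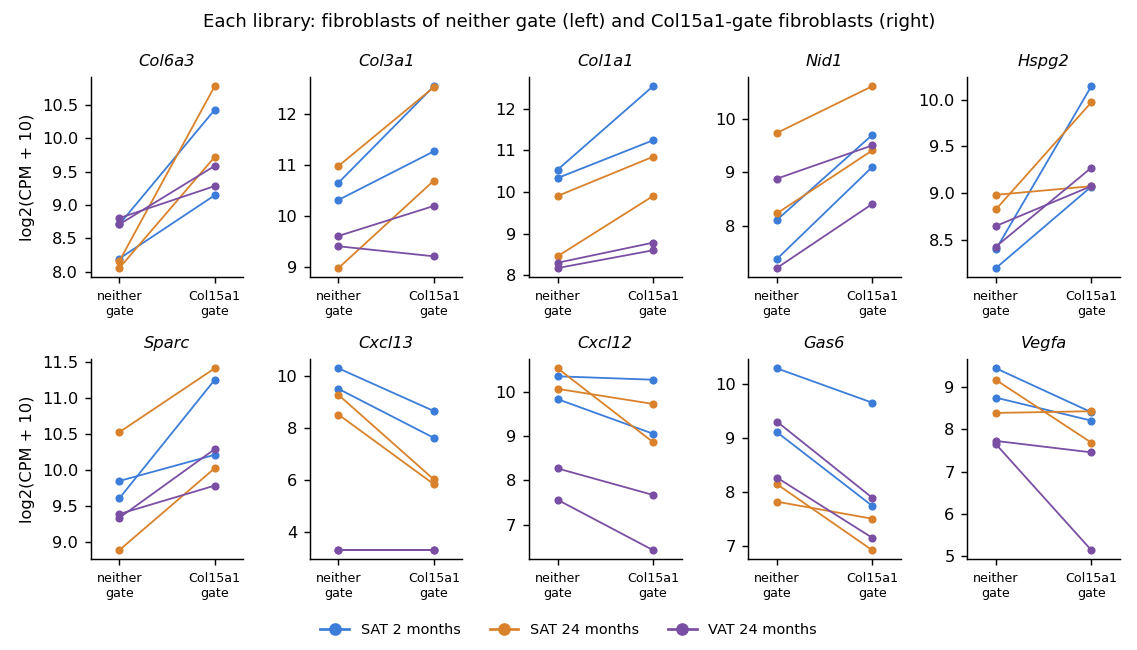
Levels of 10 genes in each library as log2(CPM + 10) on the y axis, in fibroblasts of neither gate (left) and Col15a1-gate fibroblasts (right), with 1 line per library coloured by group. Lines for Col6a3, Col1a1, Nid1, Hspg2 and Sparc rise in all 6 libraries and those for Col3a1 in 5, while Cxcl13 falls in the 4 SAT libraries and is at 0 in both classes of VAT.

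With age in SAT, members had less Meg3, a nuclear long non-coding RNA, and no gene list showed a called member. Members of the ages also differed in RNA quality and depth, without overlap. The median mitochondrial share of UMIs was 1.18% and 0.987% at 2 months and 2.59% and 2.37% at 24 months, and the median number of genes per nucleus was 1066 and 999 against 798 and 828. Their part in the age values was not tested. The 3 groups were fitted together with edgeR, and 1 of 4114 genes was called (0.0243%), with 353 at an unadjusted p under 0.05. Meg3 (chr12:109506877-109538165, plus strand) stood at 1177 and 1005 CPM at 2 months and 0 and 63.9 CPM at 24 months (291 and 16 UMIs). Both older libraries were below both younger ones, and the gene fell by 4.41 ± 0.73 on the log2 scale (adjusted p = 0.035). The call was kept in each fit that left out a library, with adjusted p-values up to 0.0216, and was lost when only the 4 SAT libraries were fitted (adjusted p = 0.0812). The number of calls was 3 without either library of SAT at 2 months, 31 and 2 without replicates 1 and 2 of SAT at 24 months, and 97 and 101 without replicates 1 and 2 of VAT.

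The genes next in order were not called (adjusted p = 0.068 to 0.084), and their libraries did not overlap, which choice by the smallest p favours. Each was called in 2 to 4 of the 6 fits without a library, Npr3 in 4. Npr3, the natriuretic peptide clearance receptor (chr15:11839982-11907373, minus strand), had 0 UMIs at 2 months and 60 at 24 months (55.7 and 232 CPM), at least 18.3-fold higher against a floor of 3 UMIs over the group. Klf4, a transcription factor, stood at 12.4 and 29.8 CPM at 2 months and 223 and 311 CPM at 24 months, and Smoc2, a matrix protein, at 118 and 39.8 and at 529 and 922 CPM. Cavin2, a caveolar protein, had a log2 difference of 3.58 ± 0.75, Tppp3, a microtubule protein, of 3.30 ± 0.70, and Sntg1, a syntrophin, of 3.15 ± 0.65. Lower values at 24 months were found for Csf2rb (235 and 368 against 0 and 24.0 CPM), Coro1a, an actin regulator of leukocytes (217 and 298 against 27.8 and 16.0 CPM), Cr2, a complement receptor (328 and 308 against 83.5 and 19.96 CPM), Acap1 and Gramd1b. Lymph node stroma genes moved with these values: 6 of 8 were tested, none was called, and their median was -1.87 against -0.01 over all genes tested. Without nuclei that held a lymph node stroma UMI, Meg3 differed by -5.00 ± 0.76 (adjusted p = 0.0126). Of the genes not called, 8 were tested there and stayed uncalled, with Npr3, Klf4, Smoc2, Cavin2, Tppp3 and Sntg1 still higher at 24 months (Klf4 by 3.11 and Cavin2 by 3.61) and Coro1a (-3.37) and Gramd1b (-3.76) still lower. Csf2rb, Cr2 and Acap1 were not among the genes tested in that fit.

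Adipogenic and matrix genes gave no call with age. The committed preadipocyte list had a median of 0.85 over 14 genes tested and the adipogenic transcription factors of 0.90 over 14, while the mature adipocyte list had 1.63 over 8. Lpl stood at 1616 and 378 CPM at 2 months and 2199 and 5226 CPM at 24 months (1.95 ± 0.79, adjusted p = 0.491), and Pparg at 155 and 49.7 and at 362 and 295 CPM (1.61 ± 0.65, adjusted p = 0.491). Gsn stood at 5178 and 2029 CPM against 15477 and 16856 CPM (2.18 ± 0.72, adjusted p = 0.332). In these 3 genes both older libraries were higher than both younger ones, an order that 2 libraries per age make common. Col1a1 stood at 5933 and 2407 CPM against 946 and 1828 CPM (-1.52 ± 0.60, adjusted p = 0.476), and Col4a2 at 1381 and 885 against 668 and 1757 CPM (0.18 ± 0.58, adjusted p = 0.969). The interstitial matrix list had a median of 0.57 over 28 genes and the basement membrane list of 0.14 over 14.

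Between depots at 24 months, no gene was called (0 of 4114, 0%, edgeR), while 222 had an unadjusted p under 0.05 and DESeq2 called 3. Without 1 library the calls numbered 33 for either library of SAT at 2 months, 12 for either of SAT at 24 months, and 101 and 22 for replicates 1 and 2 of VAT. The genes named here by the smallest p did not overlap between depots, which that choice favours and which therefore adds no support. Each of them was called in 2 to 6 of the 6 fits without a library, Zfhx4 in 6 (adjusted p at most 0.0384), and Aff2, Tbx15, Igfbp5 and Clu in 5. Greb1l, related to an estrogen-induced gene, stood at 118 and 633 CPM in VAT and 0 and 3.99 CPM in SAT (50 UMIs and 1 UMI, a ratio of 57.0 with a 95% counting interval of 9.77 to 2297, adjusted p = 0.0612). Aff2, an X-linked nuclear protein (chrX:68403900-68911643, plus strand), stood at 562 and 329 CPM in VAT and 0 and 19.96 CPM in SAT (4.70 ± 0.83, adjusted p = 0.0612). Tenm4, a teneurin, stood at 742 and 836 against 55.7 and 176 CPM (2.49 ± 0.59, adjusted p = 0.178). Ppp1r9a, Rasgrf1 and Syne2 were also higher in VAT, by 2.95 to 3.47 on the log2 scale and with adjusted p-values of 0.141 to 0.178. Tbx15, a T-box factor known to be high in subcutaneous fat, stood at 0 and 25.3 CPM in VAT and 278 and 172 CPM in SAT (1 and 53 UMIs, 46.5-fold lower with an interval of 7.99 to 1870, adjusted p = 0.0865). Zfhx4, a transcription factor, stood at 61.4 and 0 against 585 and 443 CPM (-3.39 ± 0.68, adjusted p = 0.0887), Timp3 at 279 and 127 against 1475 and 1413 CPM (-2.69 ± 0.59, adjusted p = 0.141) and Igfbp5 at 47.2 and 0 against 278 and 403 CPM (-3.24 ± 0.70, adjusted p = 0.133). Rgs5, a pericyte gene, had 2 UMIs in VAT and 111 in SAT, and Clu stood at 14.2 and 25.3 against 1058 and 95.8 CPM. Wt1, known from visceral precursors and mesothelium, had 25 UMIs in VAT (94.5 and 127 CPM) and 0 in SAT, at least 9.50-fold higher (adjusted p = 0.724). The medians were -1.10 over 28 interstitial matrix genes and -0.84 over 14 basement membrane genes, against -0.01 over all genes tested. Lists of other cells moved as well, with a median of -0.88 over 4 mural genes and of -4.14 over 6 lymph node stroma genes (-1.63 with the 3 genes at 0 in a group set at their bound). Without nuclei that held a lymph node stroma UMI, 0 of 2118 genes were called by edgeR (138 at an unadjusted p under 0.05), and the 9 named genes tested there kept their sign, with Aff2 at 4.57 (adjusted p = 0.0562), Zfhx4 at -3.42 (0.104) and Timp3 at -2.86 (0.105). The age and depot comparisons share the SAT libraries at 24 months. Over the 4114 genes tested, members of SAT at 24 months replicate 2 and VAT replicate 1 were the most alike (Pearson correlation of log2 CPM 0.784). Libraries of the same group correlated at 0.730 in SAT at 2 months, 0.583 in SAT at 24 months and 0.519 in VAT. The part of depth in these correlations was not tested.

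**Figure D5:**
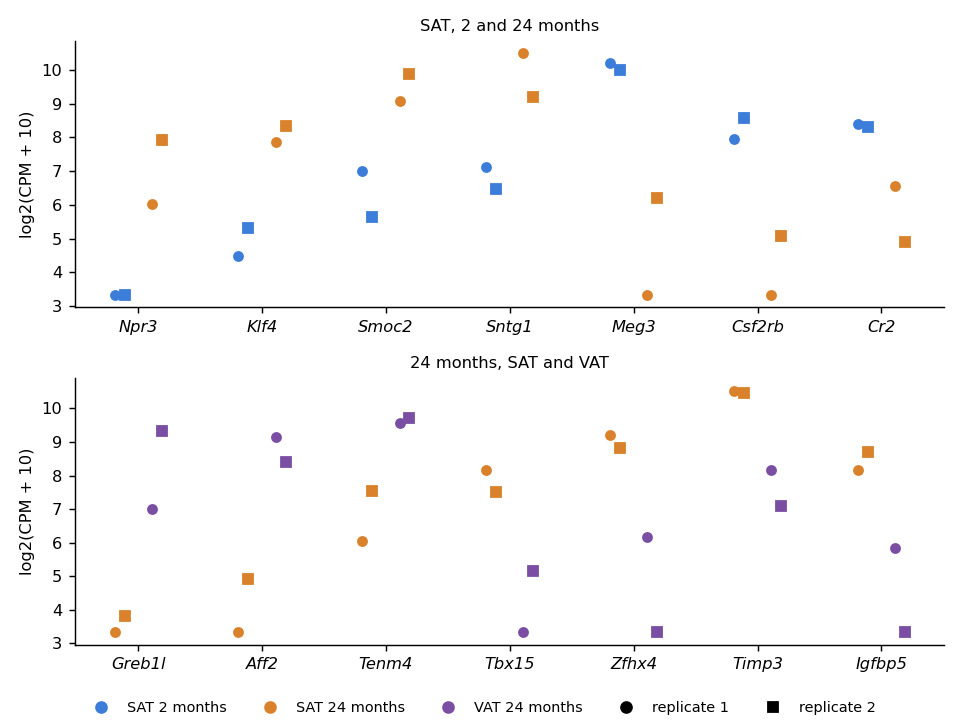
Levels in members as log2(CPM + 10) on the y axis, for 7 genes in SAT at 2 and 24 months (top) and 7 genes in SAT and VAT at 24 months (bottom), with 1 point per library and no error bars since each group has 2. The groups do not overlap for any gene shown, which choice by the smallest p favours, and of these genes only Meg3 was called.

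The age difference of members was also set against that of all other fibroblast nuclei of SAT, as an interaction in edgeR. Of 6018 genes, 11 were called (0.183%), with 277 at an unadjusted p under 0.05. Leptin receptor was among them: in members Lepr stood at 130.1 and 259 CPM at 2 months and 55.7 and 3.99 CPM at 24 months, in the other fibroblasts at 78.8 and 147 and at 199 and 184 CPM. The 27 members with a Ccl19 UMI, of which 7 and 16 were in the libraries of SAT at 2 months, held 41 Lepr UMIs and the other 445 members held 10, and Lepr was not tested without nuclei that held a lymph node stroma UMI. Ogn, a small leucine-rich proteoglycan, had the opposite direction, with 192 and 129 and then 418 and 647 CPM in members and 419 and 943 and then 219 and 276 CPM in the others. No gene of the preadipocyte, adipogenic or matrix lists was called, so an age difference particular to members was not found for them, and the 11 calls became 20, 2, 5 and 0 without replicates 1 and 2 at 2 months and replicates 1 and 2 at 24 months.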

How the data were processed

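The authors isolated nuclei from white adipose tissue, captured them on a Singleron microfluidic chip and used Celescope for alignment to GRCm39 and counting. The version, the gene annotation and the use of strand in counting are not given in the sources used here. Each library's deposited matrix gives UMI counts of 56980 genes by nucleus barcode, not normalized by the authors. Libraries held 6158 to 11341 barcodes and 8061862 to 16226690 UMIs. All libraries carry the same date in the labels, which leaves no batch to compare.

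Nuclei were kept by the filters of the study stated in the report. Members were then gated by UMI sums, not clustered. The members and all gene lists were chosen with earlier results of these data known. Scrublet marked 0.0519% to 0.562% of nuclei, under 0.5% in 5 of 6 libraries, so it was taken not to have worked and no doublets were removed. The UMIs of a class were summed within each library, with CPM taken over all UMIs of the class. Sums of at least 10 nuclei were fitted with edgeR 4.0.16 in R 4.3.3 (TMM scaling, filterByExpr, quasi-likelihood test, two-sided, Benjamini-Hochberg over all genes tested). DESeq2 1.42.0 was an alternative. The scripts were tested on simulated data. Shares were compared with an exact permutation test and given with Clopper-Pearson intervals (scipy 1.17.1). Python 3.11.15, numpy 2.4.6, pandas 2.3.3, scanpy 1.11.5 and matplotlib 3.10.9 were used. A fold against a group with 0 UMIs was set against a floor of 3 UMIs, except for the fitted interactions.

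Genes named per direction were the 6 with the largest called log2 fold change, outside the rule, not predicted genes, at 50 CPM or more and without overlap of libraries, or else those of smallest p, said to be not called. To these were added every called gene of the lists and up to 3 of each list with the highest CPM. Emilin1, Pcolce, Steap4 and genes given only in the split by Col15a1 were named after their values were seen, and a gene that the rule names is not reported here. Gene positions came from GENCODE M39 on GRCm39, in which 98.7% of the listed genes were found. Alternatives changed the scaling, tool, count filter, gate thresholds, depth, block and libraries. The fits without nuclei holding lymph node stroma UMIs and with a crossed replicate block were added after seeing the data.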

Additional observations from a re-analysis of the deposited data

Results flagged for a closer look

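For 11 genes the age difference in SAT differed between Col15a1-gate fibroblasts and the other fibroblasts, by the interaction term of edgeR's quasi-likelihood test (adjusted p under 0.05). The values below are the interaction, that is, the log2 age difference (24 against 2 months) of members minus that of the other fibroblasts, with 2 libraries per age. The interaction was negative for Dsc3 (-6.76), a desmosomal cadherin, Lepr (-4.65), Csf2rb (-3.53), Gm16685 (-3.42), Nxph1 (-3.24), Ccl21a (-2.64) and Pcdh15 (-2.21). It was positive for Ogn (3.00), Apod (3.16), an apolipoprotein, Lvrn (3.69), an aminopeptidase, and Lrrn4cl (7.06). Dsc3 and Lrrn4cl were at 0 UMIs in members of 1 age, so their fitted values depend on the prior count and are no measure or bound of the size.

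Dsc3 had 12 and 13 UMIs in members at 2 months and 0 at 24 months, while the other fibroblasts held 68.0 and 94.0 and then 139.3 and 46.0 CPM. Lrrn4cl had 0 UMIs in members at 2 months and 1 and 21 at 24 months. Csf2rb stood at 235 and 368 and then 0 and 24.0 CPM in members, and at 179 and 194 and then 239 and 128 CPM in the others. Ccl21a stood at 1239 and 5979 and then 863 and 212 CPM in members, and at 473 and 2468 and then 2417 and 445 CPM in the others. Apod stood at 49.5 and 49.7 and then 306 and 176 CPM in members, and Lvrn at 74.3 and 9.95 and then 278 and 91.8 CPM. Gm16685 overlaps Il7. In members the ages overlapped for Gm16685 (266 and 517, then 306 and 7.98 CPM), Nxph1 (149 and 428, then 362 and 7.98 CPM) and Pcdh15 (681 and 2965, then 779 and 168 CPM). None of the 11 kept its call in all 4 fits without a library, and no call was left without SAT at 24 months replicate 2. Without nuclei that held a lymph node stroma UMI, 5 of the 11 were tested and none was called, with interactions of 3.44 for Apod (adjusted p = 0.0551), 3.06 for Lvrn (0.0551), 6.47 for Lrrn4cl (0.296), 2.03 for Ogn (0.185) and -1.44 for Pcdh15 (0.999). DESeq2 called 1 gene.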

How the results depend on the processing

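The counts of called genes depended on the processing to different degrees. Against Dpp4 Pi16 fibroblasts, 259 calls became 70 of 2172 genes without the library block and 144 to 290 when each library was left out in turn. Against fibroblasts of neither gate, 77 calls became 43 with DESeq2, 48 with no filter on low counts, 33 with 0 UMIs allowed of the excluded genes, 14 without nuclei holding lymph node stroma UMIs, 48 with nuclei thinned to 1000 UMIs, and 18 to 79 without 1 library. With age, 1 call became 2 with DESeq2, 13 with no filter, 6 with at least 3 UMIs of the gate genes, 0 with only the 4 libraries compared, and 2 to 101 without 1 library. Between depots, 0 calls became 3 with DESeq2, 26 with no filter, 1 with 0 UMIs of the excluded genes, 2 with only the 4 libraries compared, and 12 to 101 without 1 library. For the age interaction, 11 calls became 1 with DESeq2, 6 with no filter, 6 with 0 UMIs of the excluded genes, 1 without nuclei holding lymph node stroma UMIs, and 0 to 20 without 1 library. The other settings run kept each count within 1.5 times, except the replicate blocks given below. The cause of these changes was not tested.

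Of the values of single named genes under the alternatives, 675 of 820 kept their side of the threshold against Dpp4 Pi16 fibroblasts and 288 of 460 against the neither-gate class, the others being lost, and no gene changed sign. The age difference in share was 7.04 to 28.2 points without 1 library, except for -2.69 without SAT at 24 months replicate 2, where its sign changed, and the depot difference ran from -42.2 to -11.3. In the other settings they were 13.3 to 17.6 and -28.7 to -22.8 points.

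Libraries with the same replicate number did not deviate together (correlations of -0.157, 0.0882 and -0.0952 between groups), so the numbers were not taken to pair them. A replicate block gave 0 calls with age (Meg3 at -4.40, adjusted p = 0.201) and 0 between depots. With the numbers of SAT at 24 months crossed, which the correlation of -0.157 prompted, 34 genes were called with age. Depth limits the values most in SAT at 24 months replicate 1 and VAT replicate 2, where 3 UMIs equal 83.5 and 76.0 CPM.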
